A study of Mus musculus with 4 samples.

Results

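The genes described here encode calcium/calmodulin-dependent protein kinases, the calmodulin-binding protein neurogranin and 2 calcium buffers. They are 10 of the 23874 genes of the count table and were chosen by symbol: Camk2a, Camk2b, Camk2d, Camk2g, Camk4, Camk1, Camkk2, Nrgn, Calb1 and Calb2. All 10 were found, and 9 passed the filter on low counts. Calb1 did not, and its counts are given without a fit. The list was proposed with results of the comparison below already known, so the differences of its members are given as a description, without p-values.

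The libraries came from mouse engineered neural tissue (ENT), made by embedding neurospheres, the spheres that neural stem cells form in suspension, in Matrigel, a basement membrane extract. EF tissue was stimulated electrically on 3 days, at 150 mV/mm and 30 min per day, before another 7 days of culture. noEF tissue was not stimulated. Both groups grew in DMEM/F12 with N2, B27 and 20 ng/ml of recombinant human basic fibroblast growth factor. The labels name the cell type as Neutral Stem Cells, read here as neural stem cells, and give no strain, age or cell line. The series design text names suspensions of neural stem cells as controls, whereas the sample labels give noEF as ENT, and the sample labels were followed. Each group had 2 libraries here, where the labels speak of 3 replicates, and nothing says that they came from separate cultures, so the spread between libraries may be technical.

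Calcium that enters a cell or leaves its stores binds calmodulin, and calcium-loaded calmodulin opens the autoinhibited CaM kinases. CaMKII is a multi-subunit holoenzyme built from the products of Camk2a, Camk2b, Camk2d and Camk2g, and in forebrain synapses the alpha and beta subunits are known for their part in long-term potentiation. Camkk2 encodes a kinase that phosphorylates and activates CaMKI and CaMKIV. Neurogranin holds calmodulin when calcium is low, and calbindin (Calb1) and calretinin (Calb2) bind calcium directly through EF-hands, a helix-loop-helix protein fold whose name has nothing to do with the electric field.

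Total counts were 33748880 to 34554537 per library. Of 14263 genes tested with edgeR's quasi-likelihood test, 546 (3.83%) were higher in EF and 712 (4.99%) were lower at a Benjamini-Hochberg adjusted p under 0.05, and genes past that threshold are said to be called. Without EF replicate 1 these counts were 217 and 337. Higher genes were 43.4% of the calls with TMM scaling and 69.3% with library totals in its place. Levels are in CPM, counts scaled to library size with TMM factors. Markers of glia and progenitors were abundant. The 7 astrocyte markers summed to 4438 to 4746 CPM in EF and 4829 to 5134 CPM in noEF. Gfap, Aqp4 and Gja1 were called lower. Slc1a3, the largest part, was not called, at 2992 and 2733 CPM in EF and 2484 and 2638 CPM in noEF. The 6 neural stem and progenitor markers summed to 4917 to 5222 CPM in EF and 6288 to 6682 CPM in noEF. Fabp7 was called lower, at 2281 and 2449 CPM in EF and 3553 and 3157 CPM in noEF. Sox2, Vim and Hes5 were lower and Nes and Pax6 higher, none of them called. The 3 markers of dividing cells, Mki67, Top2a and Ccnb1, were all called higher, with sums of 368 to 420 CPM in EF and 210 to 215 CPM in noEF.

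Markers of mature neurons were sparse. Of 9 general neuronal markers 8 were tested and 0 were called in edgeR, where 1 was higher and 1 lower at an unadjusted p under 0.05, and 0 in DESeq2 and limma-voom. Their sums of 590 to 615 CPM in EF and 501 to 574 CPM in noEF were mostly Map2, which stood at 529 and 497 CPM in EF and 411 and 481 CPM in noEF. Stmn2 had no count in any library. The 6 markers of glutamatergic forebrain neurons summed to 2.18 to 2.21 CPM in EF and 1.63 to 2.62 CPM in noEF, with Slc17a6, Neurod2 and Neurod6 at 0 throughout. The 10 GABAergic markers summed to 18.8 to 20.8 CPM in EF and 17.0 to 18.9 CPM in noEF, most of it Gad1, with Slc32a1, Lhx6, Sst and Vip at 0. Of the mesothelial markers, relevant because mesothelium also makes calretinin, Msln, Upk3b and Wt1 were at 0, while the smooth muscle actin gene Acta2 was called higher, at a log2 fold change of 1.17 (SE 0.31). Acta2 was not called with limma-voom, nor without EF replicate 1, where it stood at 0.69 (SE 0.39). The 6 mesothelial and muscle markers summed to 5.76 to 9.36 CPM in EF and 3.36 to 3.38 CPM in noEF. The part of changing cell types in the differences below was not tested, and in bulk RNA more cells of a type and more RNA per cell cannot be told apart.

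Camk2a, Nrgn and Calb2 were each more than 2-fold higher in EF and were the 3 called members of 9 tested. In edgeR 0 members were called lower, 0 were lower at an unadjusted p under 0.05, and DESeq2 and limma-voom also called 0 lower, where over all genes they called 6.88% and 5.18% lower. Over all tested genes 3.83% were called higher, and since the list was drawn up with this contrast known, nothing is read from the difference between these shares. Camk2a, Nrgn and Calb2 are also the members, apart from Camk4 and Calb1, with the lowest counts. The median log2 fold change of the 9 was 0.28, against 0.0087 over all tested genes. In 6 of the 9 both EF libraries lay above both noEF libraries, as they did in 27.6% of all tested genes. In 2 of the 9, Camk1 and Camk2g, both EF libraries lay below both noEF libraries, as in 26.8% of all tested genes.

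**Figure D1:**
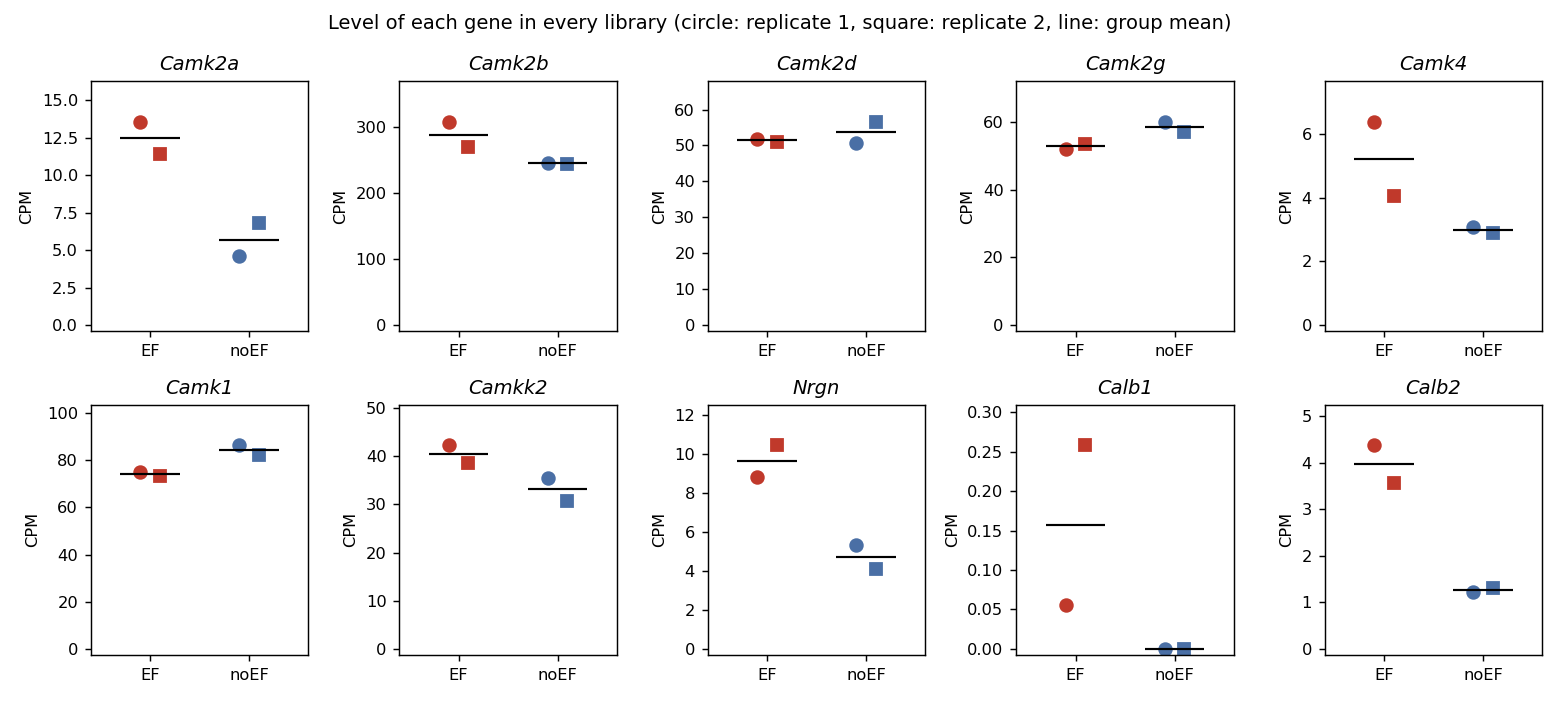
Level of each of the 10 genes in CPM (vertical axes, linear and reaching down to 0) in the EF libraries (left, red) and the noEF libraries (right, blue), with circles for replicate 1, squares for replicate 2 and a line for the group mean. The EF points of Camk2a, Nrgn and Calb2 lie well above the noEF points, those of Camk2b, Camk4 and Camkk2 lie nearer to them, and the groups of Camk2d overlap.

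Camk2a encodes CaMKII alpha, the subunit that dominates in excitatory forebrain neurons (ENSMUSG00000024617, GRCm38 chromosome 18, 60925618 to 60988152). It had 13.6 and 11.4 CPM in EF, against 4.61 and 6.78 CPM in noEF. The groups did not overlap, and the lower EF library stood 1.69-fold above the higher noEF library. The log2 fold change, EF minus noEF, was 1.13 (SE 0.22), which is 2.19-fold. All 12 alternative settings kept the call, the lowest log2 fold change being 0.88, without noEF replicate 1. Camk2a had a low level: 33.7% of tested genes had a lower mean CPM over all libraries, not divided by gene length.

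Camk2b, which encodes the actin-binding beta subunit (ENSMUSG00000057897, chromosome 11, 5969644 to 6066362), was the highest member in both groups. It had 308 and 269 CPM in EF and 246 and 244 CPM in noEF. Its mean CPM over all libraries, not divided by gene length, was above that of 95.9% of tested genes. EF replicate 1 was the highest library and the noEF libraries were close together. The log2 fold change of 0.24 (SE 0.088), or 1.18-fold, was not called, but was called with library totals in place of TMM, at 0.32 (SE 0.090), and stood at 0.14 without EF replicate 1.

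Camk2d and Camk2g encode the delta and gamma subunits, which are widely expressed outside the nervous system. Camk2d (ENSMUSG00000053819, chromosome 3, 126596302 to 126846326) had 51.8 and 51.1 CPM in EF and 50.6 and 56.6 CPM in noEF. Its groups overlapped, and its log2 fold change of -0.060 (SE 0.11) turned to 0.026 with library totals and 0.020 without noEF replicate 2. Camk2g (ENSMUSG00000021820, chromosome 14, 20734875 to 20794088) had 52.0 and 53.5 CPM in EF and 60.0 and 57.1 CPM in noEF, a log2 fold change of -0.15 (SE 0.10) that was not called, with both EF libraries below both noEF libraries.

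The 4 CaMKII genes are close paralogs, but at the nucleotide level their transcripts could be told apart. Of the stretches of 50 bases in the GENCODE transcripts of Camk2a (7516), Camk2b (9443), Camk2d (23065) and Camk2g (6881), 0 occurred in a transcript of another Camk2 gene on either strand. For Camk2a and Camk2b 0.293% and 0.159% occurred in transcripts of unrelated genes.

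Summed over the 4 genes, CaMKII transcripts stood at 426 and 385 CPM in EF and 361 and 365 CPM in noEF. Their make-up, taken per kilobase of annotated exon so that genes of different length can be set side by side, was led by Camk2b with 73.4% and 70.8% in EF and 68.8% and 68.4% in noEF. Camk2a supplied 3.95% and 3.68% in EF and 1.57% and 2.32% in noEF. Camk2a thus stayed the smallest part of the CaMKII transcripts in every library, and no protein was measured. Camk2g supplied 17.7% and 20.1% in EF, against 23.9% and 22.8% in noEF. Camk2d supplied 5.00% and 5.45% in EF, against 5.74% and 6.44% in noEF. Groups did not overlap for any of the 4 shares, which are a description of the same contrast. The 4 shares of a library make up a whole, so they do not move separately, and the CPM of Camk2d itself overlapped between groups. For the CPM of single genes, both EF libraries lay above both noEF libraries in 27.6% of all tested genes and below them in 26.8%. The share of Camk2d rests on the length used, because its annotated exons cover 22493 bases and its coding sequence 1795. Per kilobase of coding sequence Camk2d supplied 13.5% and 14.6% in EF, against 15.5% and 17.1% in noEF. Camk2g then supplied 12.3% and 13.9% in EF, against 16.7% and 15.7% in noEF, so that the transcripts of Camk2d and Camk2g were close to level.

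**Figure D2:**
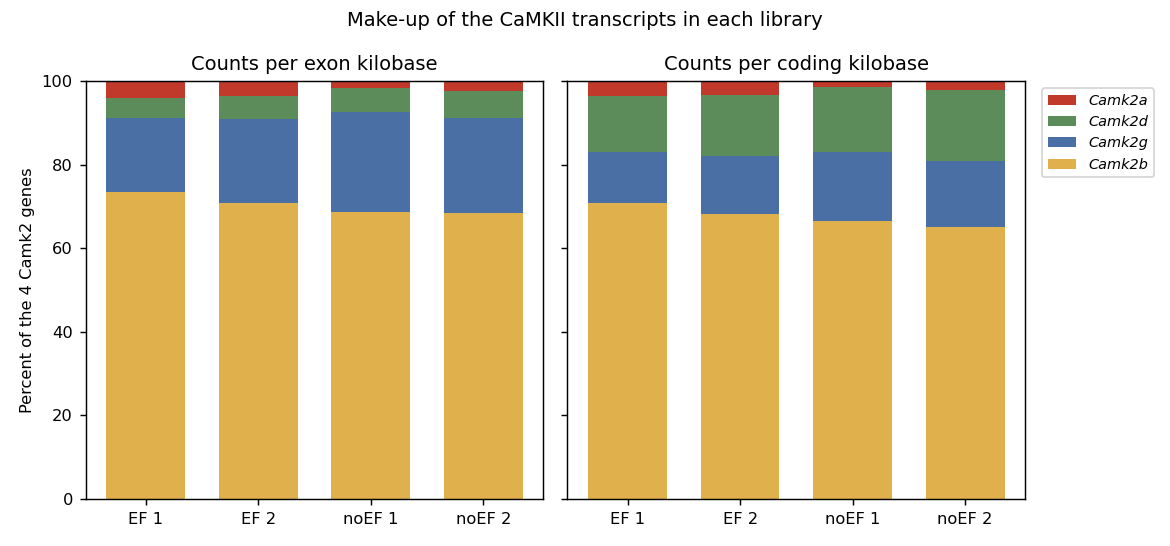
Percent of the summed CaMKII transcripts contributed by Camk2a, Camk2d, Camk2g and Camk2b (stacked, top to bottom) in each library, EF at left and noEF at right, per kilobase of exon (left panel) and per kilobase of coding sequence (right panel). Camk2b fills most of each bar in both panels, Camk2a is the thin top band, wider in the EF bars, and the split between Camk2d and Camk2g differs between the panels.

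RefSeq promoter entries on GRCm38.p6 were at hand for 5 of the 10 genes: Camk2b, Camk2d, Camk1, Camkk2 and Nrgn. The stretches before the starts of Camk2b and Camk2d are printed because these paralogs sit at opposite ends of CaMKII abundance per exon length among the genes with an entry, and that of Nrgn because it was called. Each is read 5′ to 3′ on the gene's strand and leaves out annotated exons of the gene (GENCODE M21), which gives 250 bases for Camk2b (chr11:6065749-6065998, minus strand) and Camk2d (chr3:126596701-126596950, plus strand) and 91 for Nrgn (chr9:37552905-37552995, minus strand). Capitals mark matches, on either strand, to the GC box GGGCGG, the CCAAT box, the CRE core TGACG or the TATA box TATAAA, and matches may overlap. The Camk2b and Camk2d stretches lie within the GENCODE gene, which starts further upstream, and outside its exons.
Camk2b: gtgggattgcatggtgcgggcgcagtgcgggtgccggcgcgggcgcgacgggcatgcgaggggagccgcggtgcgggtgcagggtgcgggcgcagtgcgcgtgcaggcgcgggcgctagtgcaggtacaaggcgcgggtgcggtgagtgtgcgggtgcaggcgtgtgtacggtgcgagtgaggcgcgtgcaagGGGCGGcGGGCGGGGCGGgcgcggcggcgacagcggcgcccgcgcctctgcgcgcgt
Camk2d: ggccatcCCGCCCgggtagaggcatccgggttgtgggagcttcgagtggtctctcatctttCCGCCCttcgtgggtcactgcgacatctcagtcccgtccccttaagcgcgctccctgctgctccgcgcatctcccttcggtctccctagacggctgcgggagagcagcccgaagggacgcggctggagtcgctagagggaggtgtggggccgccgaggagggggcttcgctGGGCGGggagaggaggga
Nrgn: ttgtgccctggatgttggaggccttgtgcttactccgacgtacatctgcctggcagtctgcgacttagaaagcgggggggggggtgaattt
The sequences of Camk2b and Camk2d each held 3 GC boxes and 0 matches to the other motifs, and the Nrgn stretch held 0 matches to any of them. The Nrgn stretch does not reach the RefSeq start of the gene at position 37552745. The bases between the stretch and that start were left out and not searched. In the same 250 positions of all RefSeq promoters 32.7% held a GC box, 33.8% a CCAAT box, 17.8% a CRE core and 12.4% a TATA box. Over the 91 positions used for Nrgn, the part of the 250 farthest from the RefSeq start, these shares were 9.42%, 12.3%, 4.79% and 4.8%. The Nrgn stretch also borders the start of its GENCODE gene at 37552904, which was not required of the other promoters. G and C made up 78.4% of the Camk2b bases and 68.4% of the Camk2d bases, against a median of 52.4% over all promoters, and 57.1% of the Nrgn bases, against 50.5% at the same positions. These matches are letters in a window and do not show that a factor binds.

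Camk4, Camk1 and Camkk2 encode the kinases of the CaM kinase cascade. Camk4, whose product acts in the nucleus on CREB (ENSMUSG00000038128, chromosome 18, 32934931 to 33191228), had 6.39 and 4.04 CPM in EF and 3.07 and 2.88 CPM in noEF. Both EF libraries were higher, but they lay further apart from each other than the lower one did from noEF. Its log2 fold change of 0.81 (SE 0.31) was not called under any setting, and it moved to 0.44 without EF replicate 1. Camkk2, the gene of the upstream kinase (ENSMUSG00000029471, chromosome 5, 122731170 to 122779409), had 42.2 and 38.5 CPM in EF and 35.6 and 30.8 CPM in noEF, with a log2 fold change of 0.28 (SE 0.13) that was not called. Camk1, the gene of the cytosolic kinase CaMKI (ENSMUSG00000030272, chromosome 6, 113334124 to 113343984), had 74.9 and 73.2 CPM in EF and 86.3 and 82.4 CPM in noEF. It was the member with the lowest log2 fold change, at -0.19 (SE 0.093), and was not called under any setting. Exons of Camk1 overlap those of Ogg1 on the opposite strand over 232 of 5975 bases. Without strand-aware counting, reads of that stretch could belong to either.

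Nrgn (ENSMUSG00000053310, chromosome 9, 37544492 to 37552904) had 8.82 and 10.4 CPM in EF, against 5.35 and 4.10 CPM in noEF. The lower EF library was 1.65-fold above the higher noEF library. Its log2 fold change was 1.03 (SE 0.23), or 2.04-fold. EF replicate 2 was the highest library here, whereas EF replicate 1 was the highest for Camk2a, Camk4 and Calb2. Without EF replicate 2 the log2 fold change was 0.90 (SE 0.30) and Nrgn was not called. It was called under the other 11 settings, reaching 1.32 after correction for gene length and GC content.

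Calb2 showed the largest fold difference among the tested members. The gene (ENSMUSG00000003657, chromosome 8, 110137502 to 110168210) had 156 and 124 counts in EF, against 40 and 44 counts in noEF, or 4.37 and 3.55 CPM in EF against 1.23 and 1.31 CPM in noEF. The groups did not overlap, and the lower EF library was 2.72-fold above the higher noEF library. The log2 fold change was 1.64 (SE 0.38), or 3.12-fold, and 127 of the 14263 tested genes had a higher one. Without EF replicate 1 it was 1.48 (SE 0.52) and not called, and the other 11 settings kept the call. Calretinin is a marker of interneurons in the forebrain, and the sums of the GABAergic and mesothelial markers are given above.

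Calb1, which encodes calbindin D28k, was close to absent. It had 2 and 9 counts in EF and 0 in both noEF libraries (ENSMUSG00000028222, chromosome 4, 15881264 to 15908064). The 11 counts of EF have a 95% Poisson interval of 5.49 to 19.7, for counting error only. Against the limit that a count of 0 allows, 3 counts over both noEF libraries or 0.0453 CPM, the EF rate of 0.156 CPM was at least 3.44-fold higher if its 11 counts are taken as exact, and 1.72-fold higher at the low end of their interval. EF replicate 2 gave 9 of the 11 counts, and no test was run.

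**Figure D3:**
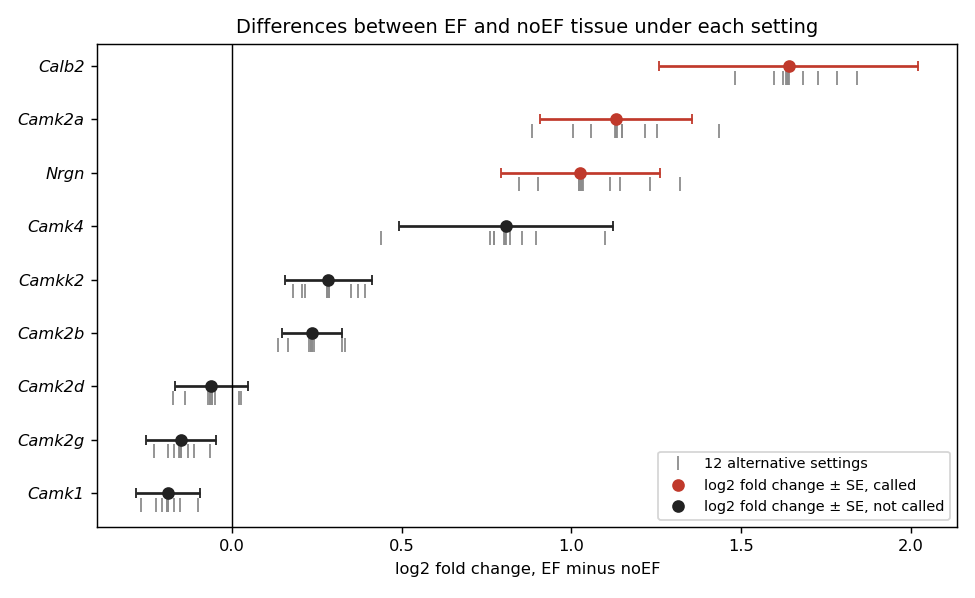
Log2 fold change of the 9 tested genes, EF minus noEF (horizontal axis), with bars for ± SE, red for called and black for not called genes, and grey ticks for the 12 alternative settings. Calb2, Camk2a and Nrgn lie at 1.03 to 1.64 under TMM scaling, and Camk2d is the one gene whose ticks fall on both sides of 0 (0.026 with library totals, 0.020 without noEF replicate 2).

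Per kilobase of exon, Camk2b led in both groups, at 31.6 ± 3.03 CPM per kilobase in EF and 26.9 ± 0.14 in noEF (SD, n = 2 each). Camk1 followed at 12.4 ± 0.20 in EF and 14.1 ± 0.47 in noEF, then Camk2g at 8.24 ± 0.16 in EF and 9.15 ± 0.33 in noEF. Nrgn, with only 1453 bases of exon, came next at 6.63 ± 0.78 in EF and 3.25 ± 0.60 in noEF. In EF it stood clear of Camkk2 at 3.70 ± 0.24, while in noEF the libraries of Nrgn (2.82 and 3.68) and Camkk2 (2.82 and 3.26) overlapped. Camk2d and Calb2 were not separable in EF, at 2.29 ± 0.024 and 2.27 ± 0.33, and neither were Camk2a and Camk4 at 1.67 ± 0.20 and 1.60 ± 0.51. In noEF Camk4, Camk2a and Calb2 stood at 0.914 ± 0.041, 0.763 ± 0.21 and 0.728 ± 0.032, and the libraries of Camk2a overlapped those of both neighbours. Per kilobase of coding sequence Camk2b and Camk1 again led in both groups, but Nrgn stood at 41.1 in EF and 20.2 in noEF, above Camk2g at 26.7 in EF and below its 29.6 in noEF.

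The rest of the pathway was read from 5 lists of 111 genes, of which 105 were tested; 4 were called higher and 5 lower by edgeR with Benjamini-Hochberg adjustment. These are 3.81% and 4.76% of the list genes, near the 3.83% called higher and 4.99% called lower over all tested genes, so the lists together held calls at about the background share. These lists, too, were drawn up with earlier results known. Of 15 other CaM kinase and regulator genes, Mylk was called higher (log2 fold change 0.65, SE 0.19, edgeR adjusted p = 0.0413) and 14 were not called, with a median of -0.035; a single call in a list of this size is near the background of 3.83%. Mylk encodes myosin light chain kinase, of smooth muscle among other tissues. It lost its call under 7 of 12 settings, among them each of the 4 that leave out a library. Acta2 was called higher, with the exceptions given above. Of the other muscle markers, Des had 0.448 and 0.802 CPM in EF and 0.246 and 0.476 CPM in noEF and was not called. Myh11 had 0.224 and 0.115 CPM in EF and 0 in noEF, too low to be tested. A link between Mylk and these markers was not tested. Eef2k, which encodes the kinase of elongation factor 2, was at -0.33 (SE 0.11, edgeR adjusted p = 0.075) and Camk1g, the gene of CaMKI gamma, at 0.61 (SE 0.22, edgeR adjusted p = 0.0948). Of the 20 genes for calmodulin, its binding proteins and calcineurin, Pcp4l1 was called higher and 19 were not called, with a median of 0.034, again a single call against a background of 3.83%. Pcp4l1, which encodes a relative of the calmodulin-binding protein PCP4, had 179 and 195 CPM in EF and 142 and 144 CPM in noEF (log2 fold change 0.39, SE 0.086, edgeR adjusted p = 0.0121), and it was not called without EF replicate 2 and stood at 0.62 after the length and GC correction. Pcp4, whose exons overlap Igsf5 on the same strand, was at -1.60 (SE 0.52, edgeR adjusted p = 0.0772). Pcp4 was called lower under 5 of 11 alternatives, among them limma-voom, and stood at -0.97 without EF replicate 1 and -2.73 without EF replicate 2.

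Of 25 genes for CaM kinase targets, 2 were called higher, with a median of 0.13, where 3.83% of all tested genes were called higher and 4.99% lower. In edgeR 0 were called lower, and 0 were lower at an unadjusted p under 0.05. DESeq2 and limma-voom called 0 lower, where over all genes they called 6.88% and 5.18% lower. Gria1 encodes an AMPA receptor subunit that CaMKII phosphorylates, and it had 41.9 and 39.2 CPM in EF and 23.8 and 29.1 CPM in noEF (log2 fold change 0.62, SE 0.13, edgeR adjusted p = 0.0111). It was not called without EF replicate 1. Mef2a, a transcription factor gene, was at 0.40 (SE 0.11, edgeR adjusted p = 0.034) and lost its call in 4 of 12 settings, among them without noEF replicate 1, at 0.26, and with the length and GC correction, at 0.25. It overlaps Lysmd4 on the opposite strand over 302 of 14681 exon bases. Grin2a, which encodes an NMDA receptor subunit, was at 1.12 (SE 0.34) and just missed the threshold (edgeR adjusted p = 0.0501). Of 21 tested genes for calcium stores, pumps and exchangers 0 were called in edgeR, with a median of 0.098. In edgeR 3 were higher and 0 lower at an unadjusted p under 0.05. DESeq2 called 0 and limma-voom called 1 higher, where over all genes they called 4.31% and 3.96% higher. Atp2b1, a plasma membrane calcium pump gene, came nearest at 0.39 (SE 0.12, edgeR adjusted p = 0.0507) and was called under 5 of 12 settings. Itpr2 and Itpr1, which encode IP3 receptors, were at 0.31 (SE 0.12) and 0.51 (SE 0.22), with edgeR adjusted p-values of 0.114 and 0.181.

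Among 24 tested EF-hand buffer and sensor genes other than Calb1 and Calb2, 5 were called lower, S100a16, S100a10, S100a4, S100a6 and Pvalb, with a median of -0.070. In edgeR 0 were called higher, and 1 was higher at an unadjusted p under 0.05. DESeq2 and limma-voom each called 1 higher, where over all genes they called 4.31% and 3.96% higher. Over all tested genes 4.99% were called lower. Calb2 was thus called in the opposite direction to each called gene of that list.

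**Figure D4:**
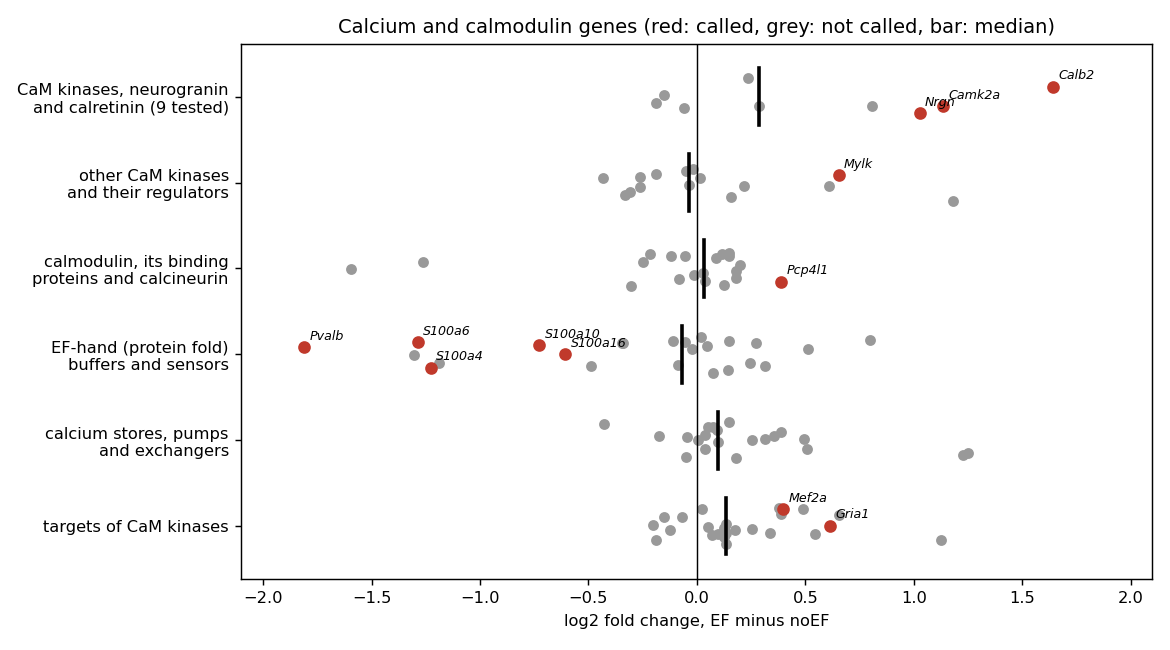
Log2 fold change, EF minus noEF (horizontal axis), of the 9 tested genes of the main list (top row) and of 5 pathway lists, 1 point per gene, red and named where called, grey where not, with a vertical bar at the median. The called points of the top row lie at 1.03 to 1.64, and the called points among the EF-hand genes all lie below 0.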

How the data were processed

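PolyA RNA was sequenced from 2 EF and 2 noEF libraries, grouped and numbered by their sample titles. The deposited counts are whole numbers per gene. HISAT2 2.0.4, StringTie 2.2.1, DESeq2 1.44.0 and GRCm38 appear, with no role or order, per the submitters' processing notes. The annotation, the counting step and its strand setting were not given in the sources used here. In each library 57 to 76 genes had a count of 1 and 239 to 294 a count of 2, and the cause was not tested. Intervals and floors cover counting error only and take counts as independent. Replicates were no copies of each other: chi-square over its degrees of freedom was 17.4 in EF and 18.3 in noEF.

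The deposited counts were tested with edgeR 4.0.16 in R 4.3.3, by the robust quasi-likelihood F test after TMM scaling and filterByExpr (minimum count 10, minimum total 15), with Benjamini-Hochberg adjustment over 14263 genes. The script was first tested on simulated data. The biological coefficient of variation was 0.161. Counts of genes at an unadjusted p under 0.05 have no share over all genes beside them. SE was computed as |log2 fold change| over √F. The 12 alternatives were RLE size factors, library totals, no filter, a filter of 1 CPM in 2 libraries, limma-voom (limma 3.58.1), DESeq2 1.42.0, a replicate block, a correction for length and GC content with mgcv 1.9.3, and leaving out each library, where the lone library of a group is assumed to vary like the other group. Members, lists and markers were chosen with earlier results of these data known. Named are all members, the 3 tested genes with the smallest p in each list, every called list gene, and markers that were called. Markers at 0 are named only in part. Pdgfra, of the oligodendrocyte lineage, was called lower, at a log2 fold change of -0.52 (SE 0.15). It lost its call under 3 of 12 alternatives, among them library totals. It stood at -0.40 without EF replicate 1 and at -0.34 without noEF replicate 2. The 7 markers of that lineage summed to 2450 and 2797 CPM in EF and 2568 and 2412 CPM in noEF. Of these 7, only Pdgfra was called. A gene that this rule names is not reported here. Coordinates, exon lengths and overlaps are from GENCODE M21 (GRCm38), promoters from RefSeq (GRCm38.p6).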

Additional observations from a re-analysis of the deposited data

How the results depend on the processing

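Over 12 alternatives, Camk2a kept its call in each, and Nrgn and Calb2 in 11. Camk2d turned to 0.026 with library totals and lay between -0.14 and 0.020 with 1 library left out, above 0 without noEF replicate 2. Over the whole table, library totals called 1138 genes higher, no filter called 915 higher and 1203 lower, and leaving out 1 library called 217 to 790 higher and 337 to 1065 lower. With the replicate number as a block, 410 were higher and 568 lower; the deviations of same-numbered libraries from their group means correlated at -0.0898, so the number was not taken to pair them.

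Per coding kilobase, CaMKII shares averaged 3.41% for Camk2a in EF, 69.4% in EF and 65.8% in noEF for Camk2b, 14.1% in EF and 16.3% in noEF for Camk2d, and 13.1% in EF and 16.2% in noEF for Camk2g. Undivided by length they were 3.08% for Camk2a in EF, 67.5% for Camk2b in noEF, 12.7% in EF and 14.8% in noEF for Camk2d, and 13.1% in EF and 16.1% in noEF for Camk2g; the lengths alone set these differences.

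Of the other CaM kinases, 2 were called higher with library totals and with no filter, 0 with DESeq2, the replicate block or the length and GC correction, and 0 to 1 with 1 library left out; 1 was lower with no filter and with that correction. In the calmodulin list 3 were higher and 2 lower with that correction, 1 was lower with no filter, DESeq2, limma-voom or the replicate block, and 0 to 1 were higher and 0 to 1 lower with 1 library left out. Of the EF-hand genes 1 was higher with library totals, no filter, at least 1 CPM in 2 libraries, DESeq2, limma-voom or that correction, and 4 to 6 were lower with 1 library left out. Of the store and pump genes 2 were higher with library totals, 1 with no filter, the 1 CPM filter or limma-voom, and 0 to 2 with 1 library left out, as were 0 to 2 of the targets. The causes were not tested. With 2 libraries per group, and 40 to 156 counts for Calb2, single libraries weigh heavily on the low members.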

Other observations

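The called EF-hand genes other than calretinin were lower in EF. S100a10, which encodes the annexin A2 partner p11, had 121 and 149 CPM in EF and 237 and 210 CPM in noEF (log2 fold change -0.73, SE 0.11, edgeR adjusted p = 0.00122). S100a16 had 182 and 188 CPM in EF and 306 and 256 CPM in noEF (-0.61, SE 0.094, edgeR adjusted p = 0.00117). In both genes the groups did not overlap, and both kept the call under all 12 alternatives. The length and GC correction gave smaller changes, of -0.42 for S100a10 and -0.36 for S100a16.

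S100a6 (calcyclin) had 2.86 and 4.93 CPM in EF and 10.1 and 8.89 CPM in noEF (-1.29, SE 0.27, edgeR adjusted p = 0.00942), and was not called without EF replicate 1, at -0.95. S100a4 had 5.63 and 6.59 CPM in EF and 17.0 and 11.7 CPM in noEF (-1.23, SE 0.22, edgeR adjusted p = 0.00285), but 302 of its 584 exon bases are shared with Gm42674 on the same strand. Pvalb, which encodes the buffer parvalbumin, had 1.12 and 0.974 CPM in EF and 4.76 and 2.62 CPM in noEF (-1.81, SE 0.44, edgeR adjusted p = 0.0189), and was not called without noEF replicate 1, at -1.32. Of the 7 astrocyte markers, Gfap, Aqp4 and Gja1 were called lower in the same libraries. Slc1a3 (log2 fold change 0.16), Aldh1l1 (0.030), S100b (-0.023) and Slc1a2 (-0.080) were not called. The part of the called markers in these differences was not tested.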
